A study of Mus musculus with 6 samples.

Results

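Hemoglobin, heme and red cell genes were examined in 6 tumors of 4T1, a mouse mammary carcinoma line that stands in for the triple-negative form of human breast cancer. These genes were listed by symbol, 8 in all: the adult alpha globins Hba-a1 and Hba-a2, the adult beta globins Hbb-bs and Hbb-bt, Alas2, Slc4a1, Ahsp and Bpgm. Of these, 7 were matched to a row of the 23508-gene count table, and Ahsp was not analysed here. The list was selected on earlier results of the same with-peak against before-peak contrast, so levels and fold changes of its genes are a description and carry no test.

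Neural activity was recorded in the tumors, and 3 tumors collected ahead of its first peak (B1, B2 and B3, by replicate number) were compared with 3 collected on the day of it (W1, W2 and W3). Both groups are 4T1 tumors with no other treatment named. Tumor age, host strain and sex are not in the labels, nor is it stated that each tumor had its own animal, so the p-values speak only to variation among these samples, which may be technical. Each library is poly(A)-selected RNA of a whole tumor piece. Total counts ran from 10591067 to 14549357 per library. Carcinoma markers were abundant in every tumor, with a summed level of 3394 to 4358 CPM before the peak and 2677 to 3984 CPM with it over the 10 genes of that list (CPM, counts scaled to library size with TMM factors).

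Hemoglobin is a tetramer of alpha and beta globin chains, each holding a heme. Red cell precursors make it in large amounts, and globin messenger RNA persists in reticulocytes, the young red cells that have already lost their nucleus. Alas2 is the erythroid form of the first enzyme of heme synthesis, Slc4a1 encodes band 3, the anion exchanger of the red cell membrane, and Bpgm makes 2,3-bisphosphoglycerate, which lowers the oxygen affinity of hemoglobin. In bulk tissue, more red cells and more RNA per red cell cannot be told apart.

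The paralogs are nearly identical in the reference annotation, which limits how a count table can divide their reads. The coding sequences of Hba-a1 and Hba-a2, 429 bases each in GENCODE M21, differ at 1 base, C381T (Hba-a1 first, counted from the start codon). Those of Hbb-bs and Hbb-bt, 444 bases each, also differ at 1 base, C417T (Hbb-bs first). Bases 366 to 395 of the alpha genes and 402 to 431 of the beta genes are shown to mark the only coding base that separates each pair, in capitals:
Hba-a1: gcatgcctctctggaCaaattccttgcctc
Hba-a2: gcatgcctctctggaTaaattccttgcctc
Hbb-bs: ggtggctggagtggcCgctgccctggctca
Hbb-bt: ggtggctggagtggcTgctgccctggctca
Of all 50-base windows of the Hba-a2 transcript, 86.9% also occur in the Hba-a1 transcript, and 58.3% of those of Hbb-bt occur in Hbb-bs. Single counts of the 4 globin genes are therefore uncertain, while the sums over each pair depend less on how such reads were divided. The sums would still be too low if such reads were left out of the counts. All of these are reference sequences. Whether the tumors and their hosts carry the same globin sequences was not tested.

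The upstream sequences are shown because levels of these genes varied together across tumors. RefSeq (GRCm38.p6) gave a start site for 6 of the 8 genes, and 250 bases upstream of it were searched on both strands for 2 short words that erythroid factors are known to bind: the GATA word (spelled AGATAA in one form, AGATAG in another, TGATAA in the third, or TGATAG) and the CACCC word. Matches to either are in capitals, and matches that overlap run together:
Hba-a2: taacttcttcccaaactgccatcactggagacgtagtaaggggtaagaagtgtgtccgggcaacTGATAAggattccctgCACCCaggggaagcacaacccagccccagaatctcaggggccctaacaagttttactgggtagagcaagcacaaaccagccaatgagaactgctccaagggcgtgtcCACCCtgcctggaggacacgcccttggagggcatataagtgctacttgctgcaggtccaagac
Hbb-bs: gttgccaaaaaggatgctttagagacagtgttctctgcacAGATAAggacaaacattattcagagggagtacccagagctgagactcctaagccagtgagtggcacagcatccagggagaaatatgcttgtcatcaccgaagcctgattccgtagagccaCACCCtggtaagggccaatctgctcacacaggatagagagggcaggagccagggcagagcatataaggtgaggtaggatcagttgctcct
Hbb-bt: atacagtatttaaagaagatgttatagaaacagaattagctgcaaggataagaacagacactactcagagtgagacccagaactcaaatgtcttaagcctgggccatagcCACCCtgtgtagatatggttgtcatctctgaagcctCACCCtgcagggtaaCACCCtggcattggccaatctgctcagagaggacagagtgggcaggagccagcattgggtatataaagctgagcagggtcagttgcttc
Alas2: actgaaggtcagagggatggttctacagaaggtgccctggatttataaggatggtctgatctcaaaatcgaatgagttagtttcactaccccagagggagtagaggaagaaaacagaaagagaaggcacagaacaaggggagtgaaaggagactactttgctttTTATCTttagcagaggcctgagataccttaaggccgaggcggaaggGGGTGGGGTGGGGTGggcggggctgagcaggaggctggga

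These windows lie at chr11:32296242-32296491 (Hba-a2, plus strand), chr7:103827929-103828178 (Hbb-bs, minus), chr7:103813924-103814173 (Hbb-bt, minus) and chrX:150547167-150547416 (Alas2, plus). They are upstream of the RefSeq starts, which lie inside the GENCODE gene spans given below. Each window therefore overlaps the GENCODE span of its gene. The window of Hba-a1 shares a run of 247 bases with that of Hba-a2 and is not printed. Windows of Hbb-bs and Hbb-bt share no run longer than 14 bases, although their coding sequences are 99.8% identical. The GATA word occurred in 4 of the 6 windows, those of Hba-a1, Hba-a2, Hbb-bs and Alas2, against 26.5% of all 32851 windows in the table. The CACCC word occurred in 5 of 6, all but Bpgm, against 52.0%. Both words occurred together in 4 of 6, against 11.8%. The windows of Hba-a1 and Hba-a2, near copies of each other, are both included in each count and are not independent. A match is a stretch of letters and not a measured binding site.

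Among the beta globins, both genes were highest in W2 and W3. Hbb-bs (ENSMUSG00000052305, GRCm38 chromosome 7, 103826534 to 103828096) was at 125.9, 71.0 and 140.1 CPM in B1, B2 and B3, and at 154.7, 746.5 and 1232 CPM in W1, W2 and W3. The groups did not overlap, but W1 lay just above the highest before-peak tumor while W2 and W3 stood far above all others, at 6.65 and 10.97 times the before-peak mean. The group means were 112.3 ± 36.5 and 711.2 ± 539.7 CPM (SD, n = 3), a log2 fold change of 2.66 (SE 0.83) with peak over before peak.

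Hbb-bt (ENSMUSG00000073940, chromosome 7, 103812524 to 103813996), the second adult beta gene, followed the same order. It was at 14.6, 9.55 and 17.998 CPM in B1, B2 and B3, and at 20.6, 131.2 and 219.3 CPM in W1, W2 and W3. The groups again did not overlap, and the log2 fold change was 3.14 (SE 0.94).

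The alpha globin genes showed the same pair of high tumors. Hba-a1 (ENSMUSG00000069919, chromosome 11, 32283511 to 32284465) was at 68.6, 33.7 and 72.0 CPM in B1, B2 and B3, and at 81.1, 387.4 and 487.8 CPM in W1, W2 and W3, with no overlap between groups (log2 fold change 2.45 ± 0.76 SE). Hba-a2 (ENSMUSG00000069917, chromosome 11, 32296489 to 32297298) was at 12.3, 18.9 and 15.7 CPM before the peak and at 13.9, 153.1 and 150.6 CPM with it, in replicate order (log2 fold change 2.75 ± 0.95 SE). Here W1 lay inside the before-peak range, so the groups overlapped.

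Alas2 (ENSMUSG00000025270, chromosome X, 150547375 to 150570638) varied little among the before-peak tumors. It was at 4.82, 3.91 and 4.33 CPM in B1, B2 and B3, and at 6.45, 36.4 and 58.1 CPM in W1, W2 and W3 (log2 fold change 2.94 ± 0.80 SE). The groups did not overlap. Exons of Alas2 overlap those of Apex2, a DNA repair gene on the opposite strand, and the libraries do not mark strand, so reads in the overlap cannot be assigned to one gene. Apex2 was at 11.9, 10.6 and 13.6 CPM before the peak and at 11.8, 20.4 and 24.2 CPM with it, high in the same 2 tumors.

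Slc4a1 was scarce, and Bpgm had the smallest log2 fold change of the 6 genes that could be fitted. Slc4a1 (ENSMUSG00000006574, chromosome 11, 102348824 to 102366203) had 8, 2 and 4 counts in B1, B2 and B3, and 5, 24 and 49 counts in W1, W2 and W3. Exact 95% Poisson intervals, which cover counting error only, ran from 1.62 to 11.7 counts in W1 and from 36.3 to 64.8 in W3. Band 3 RNA thus rested on 8 counts or fewer in 4 tumors. The gene did not pass the filter on low counts, which left 6 genes of the list in the fit. Bpgm (ENSMUSG00000038871, chromosome 6, 34476207 to 34505613) was at 16.7, 11.8 and 17.7 CPM before the peak and at 13.05, 33.7 and 28.1 CPM with peak (log2 fold change 0.69 ± 0.34 SE). W2 and W3 were again highest, and W1 lay within the before-peak range.

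**Figure D1:**
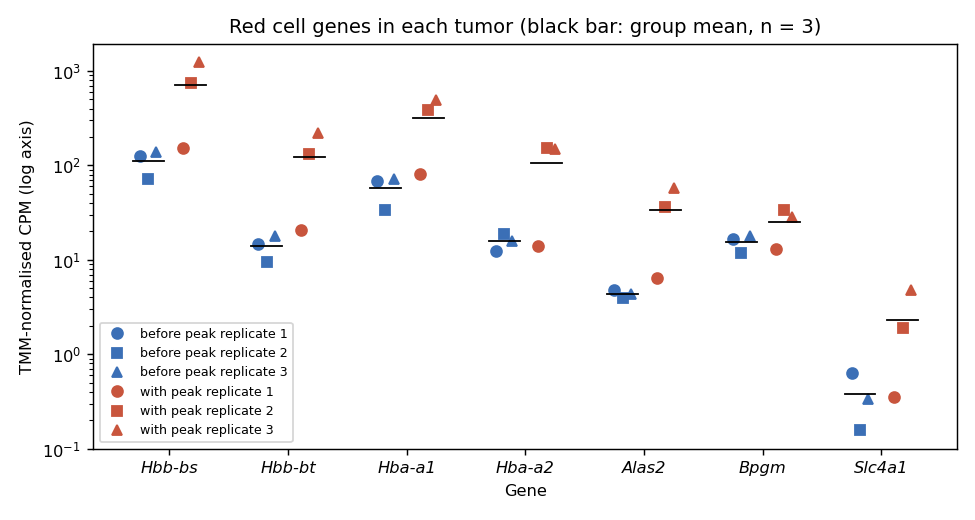
TMM-normalised CPM (log axis) of the 7 red cell genes in each tumor; points are single tumors, marked by group and replicate, and black bars are group means (n = 3). W2 and W3 lie above the other 4 tumors for each of the 7 genes, and W1 lies near the before-peak tumors.

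W2 and W3 thus had the highest levels for all 7 measured genes; over the 16755 genes tested, 9.28% had those tumors above the other 4. Groups did not overlap for 4 of the 7 genes, where 8.13% of tested genes had all with-peak tumors above all before-peak ones. By the edgeR quasi-likelihood test over all genes, at a Benjamini-Hochberg adjusted p under 0.05, 0 of the 6 genes in the fit were called, and 0.0% of all genes were called higher. DESeq2 called 2 of the 6, Hbb-bt and Alas2, where it called 1.44% of the 16755 genes higher and 0.143% lower. By edgeR, 5 of the 6 had an unadjusted p under 0.05, as did 6.12% of all genes in the higher direction. These counts come from the contrast the list was drawn from and support nothing further. The median log2 fold change of the 6 was 2.71, beside -0.02 over all genes tested.

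The difference between groups rested on W2 and W3. Without both of them, a fit chosen after seeing the data in which the remaining with-peak tumor was assumed to vary like the before-peak tumors, the median log2 fold change of the 6 genes was 0.46. In that fit it was 0.45 for Hbb-bs and 0.56 for Alas2, and it turned negative for Hba-a2 (-0.18) and Bpgm (-0.25). Without W1 the median was 3.14 over 7 genes, and edgeR then called Hba-a2 and Alas2, where it called 0.0522% of 17247 genes higher and 0.0% lower.

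The 4 adult globin genes together took 0.0225%, 0.0134% and 0.0253% of all counts in B1, B2 and B3, and 0.0265%, 0.139% and 0.203% in W1, W2 and W3. Exact 95% binomial intervals, which cover counting error only, were 0.0257% to 0.0273% in W1 and 0.0244% to 0.0263% in B3, and these intervals overlap. Counts assigned to globin genes were a small part of each library even where they were highest. Leaving the list's genes out of the library totals gave the same median to 2 decimals, 2.71. How reads that fit both copies of a pair were handled is not stated, so the share of globin RNA itself could be higher.

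Levels per kilobase of annotated exon allow for gene length but not for reads that fit both copies of a globin pair. Of 50-base windows, 67.5% of those of Hba-a1 occur in Hba-a2 and 86.9% the other way, so ranks of single globin genes are uncertain. Before the peak, Hbb-bs stood at 146.3 ± 47.5 CPM per kilobase and Hba-a1 at 71.6 ± 26.1. Hba-a2 at 23.5 ± 5.0 and Hbb-bt at 19.99 ± 6.05 CPM per kilobase were not in the same order in every before-peak tumor. Bpgm followed at 4.30 ± 0.88, Alas2 at 1.81 ± 0.19 and Slc4a1 at 0.077 ± 0.050 (SD, n = 3 throughout). With peak, Alas2 was at 14.01 ± 10.8 and Bpgm at 6.96 ± 2.98 CPM per kilobase. The order of these 2 was thus reversed in the means, in W2 and in W3, but not in W1. The order of the 4 globin means with peak was Hbb-bs at 926.0 ± 702.7, Hba-a1 at 392.5 ± 260.9, Hbb-bt at 176.0 ± 141.7 and Hba-a2 at 158.7 ± 119.4. These SDs are spreads between tumors and do not compare genes within a tumor. Per kilobase, Hbb-bs stood above Hba-a1, and Hba-a1 above Hbb-bt, in each with-peak tumor. Hba-a2 stood above Hbb-bt in W2 only.

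Shares among the transcripts show how far the genes kept step, independently of library size. Alas2 made up 2.13%, 2.85% and 1.73% of Alas2 plus adult globin counts in B1, B2 and B3, and 2.33%, 2.50% and 2.71% in W1, W2 and W3. The groups overlapped, at 2.24 ± 0.57% and 2.51 ± 0.19% (SD, n = 3), while globin counts themselves ranged from 1702 to 21544 per library. Alpha globin made up 35.7% to 39.5% of adult globin counts before the peak and 35.1%, 38.1% and 30.5% in W1, W2 and W3, where W3 was lowest (95% interval 29.9% to 31.2%).

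Within the beta pair, Hbb-bt took 10.4% to 11.9% of counts before the peak, 11.7% in W1, and 14.95% and 15.1% in W2 and W3. The group means were 11.2 ± 0.75% and 13.9 ± 1.91% (SD, n = 3), and the groups overlapped. Within the alpha pair, Hba-a2 took 15.2%, 36.0% and 17.9% in B1, B2 and B3 and 14.6%, 28.3% and 23.6% in W1, W2 and W3. The spread of this share was thus larger than counting error in both groups. B2 had the lowest Hba-a1 level and the highest Hba-a2 share of the 6 tumors. Whether reads that fit both copies of either pair were divided differently was not tested, nor was whether the tumors carry the reference sequences. The share of Bpgm in Bpgm plus adult globin counts was 6.73% to 8.15% before the peak and 4.61%, 2.32% and 1.33% in W1, W2 and W3, and the groups did not overlap.

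**Figure D2:**
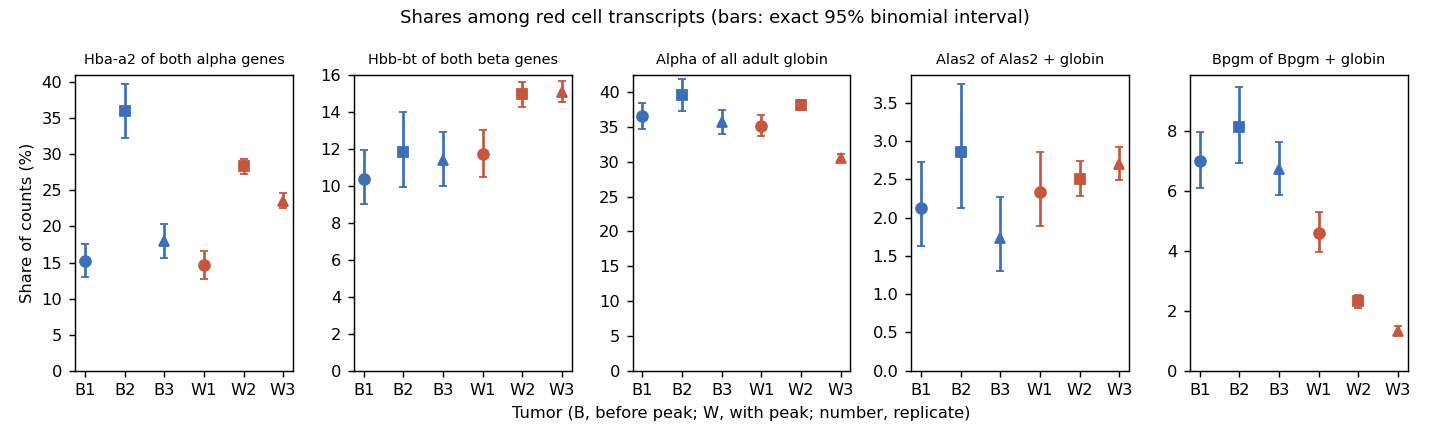
Shares of counts (%) among red cell transcripts in before-peak (B) and with-peak (W) tumors, numbered by replicate; bars are exact 95% binomial intervals for counting error. The Alas2 share stays between 1.73% and 2.85% in all 6 tumors, the Hbb-bt share is 14.95% and 15.1% in W2 and W3, and the Bpgm share is 1.33% in W3.

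No gene of the other red cell and heme lists passed the edgeR test either. The 13 related lists held 126 tested genes, of which edgeR called 0 over all genes, 33 had an unadjusted p under 0.05 in the higher direction and 4 in the lower (6.12% and 3.38% of all genes), and DESeq2 called 14 (1.44% of all genes higher and 0.143% lower). Genes named below are among the 2 with the smallest p-values in each list unless stated otherwise, and none of them passed. Beside the overlaps given with single genes, Ryr1, Neb, Cygb, Ldb1 and Krt5 also overlap exons of opposite-strand genes.

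Heme synthesis genes other than Alas2 had log2 fold changes between -0.45 and 0.37. Of 14 tested genes of this list, which covers the ubiquitous enzyme Alas1, the later enzymes from Alad to Fech and the mitochondrial carriers, 8 had a positive and 6 a negative log2 fold change (47.7% of all genes were positive), with a median of 0.04, and edgeR called 0 (DESeq2 0, 2 at an unadjusted p under 0.05). Abcb10, a mitochondrial transporter, was at 27.6 ± 1.51 CPM before the peak and 20.2 ± 0.46 with it (log2 fold change -0.45 ± 0.14 SE, adjusted p = 0.390 by edgeR), lower in every with-peak tumor. Its exons overlap an opposite-strand gene. Tmem14c, which imports porphyrin precursors into mitochondria, had a log2 fold change of 0.37 (SE 0.14, adjusted p = 0.475 by edgeR). Fech, which inserts iron into the ring and was chosen after its values were seen, had one of 0.10 (SE 0.16).

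Late red cell genes mostly had positive log2 fold changes. Of 11 tested genes of red cell enzymes and late maturation, 9 were positive, with a median of 0.14; edgeR called 0, DESeq2 called 2, and 4 had an unadjusted p under 0.05. Blvrb, biliverdin reductase B, was at 23.3, 18.9 and 23.7 CPM before the peak and at 40.7, 45.5 and 37.2 CPM on its day (log2 fold change 0.91 ± 0.15 SE, adjusted p = 0.0976 by edgeR). Unlike the globins, Blvrb was as high in W1 as in the other with-peak tumors. DESeq2 called Blvrb.

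Membrane and cytoskeleton genes of red cells had 16 of 18 symbols with a row and 10 tested, 7 positive and 3 negative, with a median of 0.22; edgeR and DESeq2 called 0 and 2 had an unadjusted p under 0.05. Ank1, the ankyrin that ties band 3 to spectrin, was at 2.95 ± 1.09 CPM before the peak and 6.49 ± 2.16 with it (log2 fold change 1.14 ± 0.38 SE, adjusted p = 0.397 by edgeR). Aqp1, a water channel of red cells and of endothelium, was at 148.5, 101.8 and 150.2 CPM before the peak and at 168.4, 254.9 and 168.2 CPM on its day (log2 fold change 0.56 ± 0.21 SE, adjusted p = 0.471 by edgeR). Exons of Ank1 overlap an opposite-strand gene.

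Gata1 and Klf1, factors of red cell formation, rested on 13 counts or fewer in each tumor. Gata1, the central factor of red cell formation, had 5, 1 and 12 counts in B1, B2 and B3 and 8, 0 and 3 in W1, W2 and W3. Klf1, which activates adult beta globin, had 2, 3 and 2 counts before the peak and 0, 13 and 6 with it. Neither passed the filter, and both were chosen after their values were seen. Of 8 tested genes on the regulator list, 5 were positive and 3 negative, with a median of 0.08, and edgeR and DESeq2 called 0, with 0 at an unadjusted p under 0.05. Tfrc, the transferrin receptor that brings iron into precursors and into dividing cells, had a log2 fold change of -0.36 (SE 0.17, adjusted p = 0.559 by edgeR), and Ldb1, a cofactor of GATA complexes, had one of -0.22 (SE 0.11, adjusted p = 0.588 by edgeR).

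Embryonic and fetal-type globin genes of the fixed list were not analysed here. Of the other globins, Mb, the myoglobin of muscle, was at 4.33, 4.38 and 3.08 CPM before the peak and at 4.63, 16.8 and 10.6 CPM on its day (log2 fold change 1.44 ± 0.44 SE, adjusted p = 0.387 by edgeR). Its exons overlap opposite-strand genes. Cygb, a globin of fibroblasts, had a log2 fold change of 0.36 (SE 0.34, adjusted p = 0.785 by edgeR). These were the only 2 genes of that list in the fit, with edgeR and DESeq2 calling 0 and 1 at an unadjusted p under 0.05.

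Genes that clear hemoglobin and heme were ordered differently across tumors from the globins. Of 10 tested genes 8 were positive, with a median of 0.31; edgeR and DESeq2 called 0 and 2 had an unadjusted p under 0.05. Hmox1, heme oxygenase, was at 97.2, 70.9 and 195.1 CPM before the peak and at 307.8, 245.7 and 189.8 CPM on its day (log2 fold change 1.03 ± 0.41 SE, adjusted p = 0.519 by edgeR). Its highest value was in W1, where globin RNA was near the before-peak level. Slc48a1, a heme transporter of the phagolysosome, had a log2 fold change of 0.45 (SE 0.16, adjusted p = 0.433 by edgeR). Its exons overlap an opposite-strand gene.

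**Figure D3:**
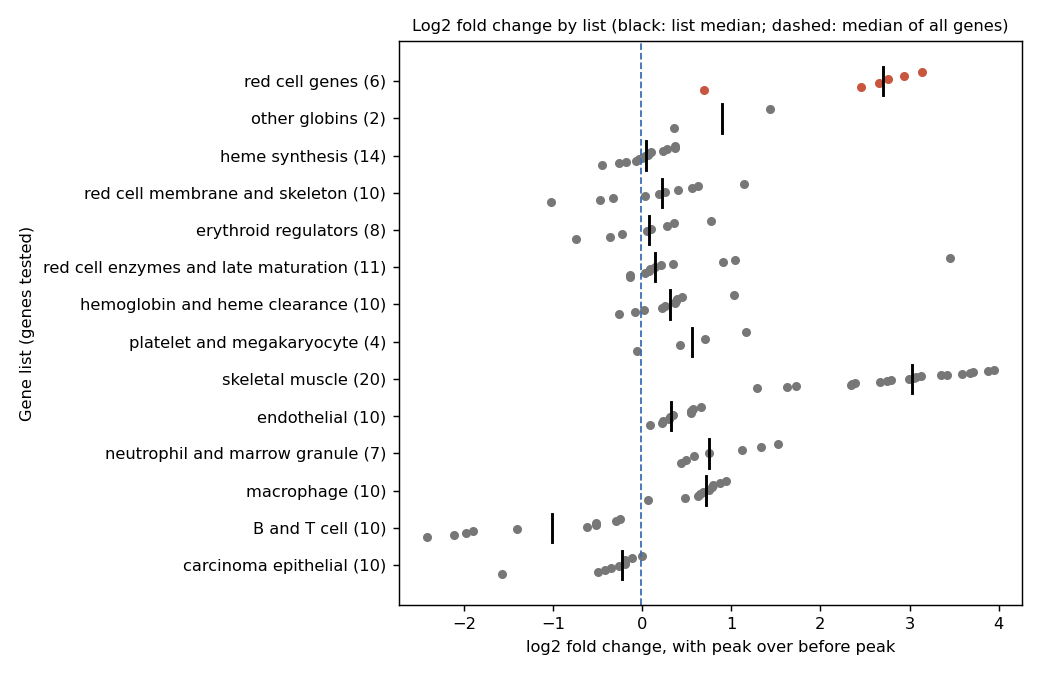
Log2 fold change (with peak over before peak) of each tested gene, by list, with the number tested in brackets; black bars are list medians and the dashed line is the median of all genes tested (-0.02). The 6 red cell genes have a median of 2.71 and the 20 skeletal muscle genes one of 3.02. Heme synthesis genes have a median of 0.04 (-0.45 to 0.37) and erythroid regulators one of 0.08 (-0.74 to 0.77).

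Markers of other cell types were measured beside the red cell genes. Skeletal muscle genes were highest in the same tumors: all 20 of 20 genes of that list had W2 and W3 on top, and their summed level was 362.4, 105.6 and 71.3 CPM in B1, B2 and B3 and 322.8, 1894 and 1872 CPM in W1, W2 and W3. Their median log2 fold change was 3.02; edgeR called 0, DESeq2 called 7 (1.44% of all genes higher), and 11 had an unadjusted p under 0.05 in the higher direction (6.12% of all genes). Ryr1, the calcium release channel, and Neb, the thin filament protein nebulin, had log2 fold changes of 3.00 (SE 0.58, adjusted p = 0.203 by edgeR) and 2.36 (SE 0.55, adjusted p = 0.270 by edgeR). No muscle gene of the list was at 0 in every tumor. Among the other 4 tumors, the summed red cell level was 243.6, 149.2 and 268.2 CPM in B1, B2 and B3 and 290.1 CPM in W1, highest in W1 and lowest in B2, while the summed muscle level was highest in B1 and lowest in B3. What muscle tissue in the piece contributed to the red cell values was not tested.

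Platelet and vessel genes had another order in summed level. Of 13 platelet and megakaryocyte genes 8 had a row and 4 were tested. Their summed level was 81.5 to 111.1 CPM before the peak and 97.8 to 142.7 CPM with it. W3, the tumor with most globin, was the lowest of the with-peak tumors. Itgb3, a large part of this sum and chosen after its values were seen, was lowest in W3, at 34.9 CPM. Its log2 fold change was -0.06, the 1 negative value beside 3 positive ones. Pf4 and Ppbp, platelet chemokines, had log2 fold changes of 0.70 (SE 0.33, adjusted p = 0.573 by edgeR) and 1.17 (SE 0.68, adjusted p = 0.642 by edgeR). Endothelial genes summed to 317.5 to 440.2 CPM before the peak and to 446.0, 661.2 and 289.5 CPM in W1, W2 and W3, lowest in the tumor with the most globin RNA. Erg and Tek, 2 endothelial genes, had log2 fold changes of 0.55 each (SE 0.31 and 0.32, edgeR adjusted p = 0.628 and 0.638). In these 2 lists edgeR and DESeq2 called 0, with 0 at an unadjusted p under 0.05. Of the 4 platelet genes tested 1 had W2 and W3 on top, and of the 10 endothelial genes 1 (9.28% of all genes). These were Pf4, at 73.5 and 54.1 CPM against 52.5 CPM or less elsewhere, and Tek, at 26.2 and 14.4 CPM against 13.9 CPM or less.

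Neutrophil and B and T cell genes followed other orders, while macrophage genes also had W2 and W3 highest in summed level. Neutrophil and marrow granule genes summed to 101.4 to 265.8 CPM before the peak and to 364.7, 192.5 and 274.6 CPM in W1, W2 and W3, highest in the with-peak tumor with least globin; Mmp8 and Ngp, granule proteins, had log2 fold changes of 1.33 (SE 0.47, adjusted p = 0.428 by edgeR) and 1.52 (SE 0.57, adjusted p = 0.456 by edgeR). B and T cell genes summed to 572.1 CPM in B3 against 36.0 to 145.0 CPM in the other 5 tumors, with Ms4a1 and Cd79b, surface proteins of B cells, at log2 fold changes of -2.42 (SE 1.98) and -1.98 (SE 1.66), with adjusted p = 0.760 and 0.764 by edgeR. Macrophage genes did not overlap between groups in summed level, 2034 to 3384 CPM before the peak and 3803, 5441 and 4203 CPM in W1, W2 and W3. Of the 10 macrophage genes, 4 had W2 and W3 on top, as had 9.28% of all genes. Cd14 and Cd68 had log2 fold changes of 0.87 (SE 0.16, adjusted p = 0.118 by edgeR) and 0.79 (SE 0.18, adjusted p = 0.226 by edgeR). Among carcinoma genes Krt5 and Cdh1 had log2 fold changes of -1.57 (SE 0.35, adjusted p = 0.197 by edgeR) and -0.49 (SE 0.19, adjusted p = 0.477 by edgeR). Over these 4 lists edgeR called 0; DESeq2 called 4 macrophage genes (Adgre1, Cd14, Cd68 and Lyz2) and Krt5. At an unadjusted p under 0.05 there were 3 neutrophil and 9 macrophage genes in the higher direction, 3 carcinoma genes in the lower, and 0 B and T cell genes.

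**Figure D4:**
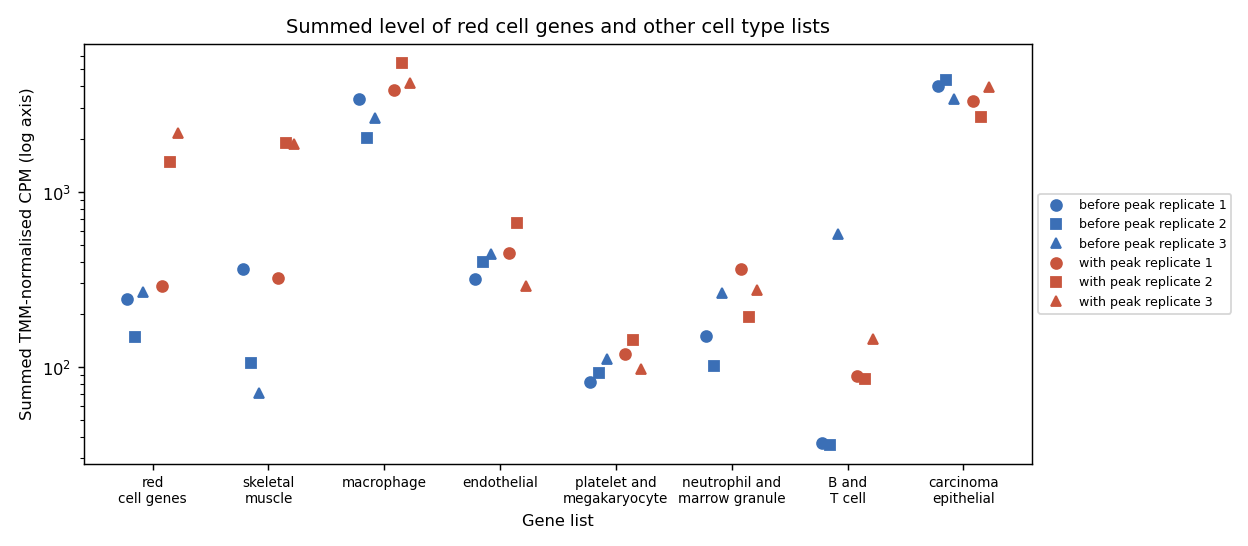
Summed TMM-normalised CPM (log axis) of the red cell genes and of 7 lists of other cell types in each tumor, marked by group and replicate. Red cell genes reach 1490 and 2181 CPM in W2 and W3 against 149.2 to 290.1 CPM elsewhere; the skeletal muscle list is high in the same tumors, and no platelet, endothelial or leukocyte list but the macrophage one has both of them on top.

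Genes with the most similar profile were sought over the 6 tumors, by Pearson correlation of log2 CPM with the mean standardised profile of the 6 red cell genes in the fit. Such a correlation is a description of 6 libraries in which 2 stand apart. Of 16141 genes compared, 45 reached a correlation of 0.95. Cdkn1c, encoding the cyclin-dependent kinase inhibitor p57, was first, at 0.995, with 2.81, 2.51 and 2.83 CPM before the peak and 2.95, 9.64 and 10.2 CPM with it. The next were Gm10244 (0.990) and Apex2 (0.986), each of which overlaps exons of a gene of the lists on the opposite strand, Mkrn1 and Alas2. The others of the 10 highest were 1810021B22Rik, Gnpda1, Dcxr, Srl, Acot13, Gm13461 and Cacna1s, at 0.985 to 0.980, and Cacna1s is a calcium channel subunit of skeletal muscle from the list above. Among the 6 red cell genes themselves, the correlation was highest between Hbb-bs and Hbb-bt, at 0.998, and lowest between Alas2 and Bpgm, at 0.885.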

How the data were processed

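The authors deposited raw counts per gene for 6 tumors, whole numbers with no normalization, 1 column per tumor. FastQC, STAR and mm10 appear in the submitters' processing notes. Which counter and annotation made the counts, and how reads that fit several genes were handled, is not stated in those notes or the labels. Per the labels' protocols, libraries were oligo(dT)-selected, paired-end and unstranded. Of 23508 rows, 23479 matched GENCODE M21 (GRCm38), which gave symbols, coordinates and exon lengths. Between libraries of a group, chi-square per degree of freedom was 18.8 to 31.8, so none was a duplicate.

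Counts were tested with edgeR 4.0.16 (TMM, filterByExpr with minimum count 10 and total 15, robust quasi-likelihood, two-sided, Benjamini-Hochberg) on 16755 genes in R 4.3.3, and checked on simulated data. SE is the log2 fold change over the root of F. Log2 CPM used a prior count of 2. Members and lists were chosen with earlier results of these data known. Named genes are the list's genes, the 2 smallest p-values of each related list where none passed, and the 10 most similar profiles. Alternatives were RLE, library size, upper quartile, other filters, DESeq2 1.42.0, limma-voom 3.58.1, a replicate block, summed paralogs and leaving out tumors. Some genes that the naming rule selects are not reported here.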

Additional observations from a re-analysis of the deposited data

How the results depend on the processing

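With upper quartile scaling, RLE, library size alone, the list left out of the totals, at least 1 CPM in 3 libraries, limma-voom or summed paralogs, the calls over all genes numbered 0 in either direction. Calls were 26 higher and 3 lower without a filter, 242 and 24 by DESeq2, and 32 and 3 at an adjusted p under 0.1; the cause was not tested. DESeq2 called 2 red cell genes and 14 related genes, and an adjusted p under 0.1 called 1 related gene, Blvrb. Leaving out 1 tumor gave 0 to 17 genes higher (17 for B2, 13 for B3, 9 for W1) and 0 lower, 0 to 2 red cell genes and 0 to 2 related genes, and a red cell median of 2.16 to 3.14. The only calls among the lists in these fits were those without W1, of Hba-a2, Alas2, Neb and Ryr1. Without both W2 and W3, an alternative chosen after seeing the data, the median was 0.46, and Hba-a2 (-0.18) and Bpgm (-0.25) turned negative; without W1 they were 3.28 and 1.01. With the pairs summed, log2 fold changes were 2.52 for alpha and 2.72 for beta globin. Tumors sharing a number showed no common deviation (correlations -0.06, -0.10 and 0.03), so no pairing is shown. A replicate block gave 1 gene higher, 0 lower and a red cell median of 2.30. Depth limits Slc4a1, Gata1 and Klf1, which rest on few counts.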
